A study of Mus musculus with 4 samples.

Results

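The genes for the proteins of the cytosolic ribosome were examined for open chromatin in mouse fibroblasts with and without Ranbp2. Members were the protein-coding RefSeq genes whose symbol is Rpl or Rps followed by a digit, leaving out the Rps6k kinases and predicted pseudogenes, together with Rplp0, Rplp1, Rplp2 and Rpsa. This gave 89 of 21887 protein-coding genes. By role they comprised 31 genes of the small subunit, 43 of the large subunit and 3 of the stalk, called the 77 core genes below, 10 paralogs of core genes, and 2 genes named after a ribosomal protein that do not encode one of its subunits. Of the 89 genes, 60 had an open region at a gene end in all 4 libraries (67.4%), against 26.4% of all protein-coding genes. No member was open in the knockout libraries alone, and 1 was open in the wild-type libraries alone. Over all genes with a gene-end peak these patterns made up 0.116% and 3.89%. Among the 60, the gene-end peaks of 16 (26.7%) ranked lower in both knockout libraries than in both wild-type libraries. Those of 7 (11.7%) ranked higher, while the other 37 overlapped between genotypes. Over all 5789 genes ranked in the same way, 21.0% were lower and 20.6% higher. The share in either direction, 38.3% of members, was near the 41.6% of all genes.

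Open chromatin was read by ATAC-seq, in which a transposase cuts and tags DNA that is not wrapped up in nucleosomes, so that sequenced fragments pile up into peaks over accessible DNA. The cells were 10T1/2, a line of mouse embryonic fibroblasts that can be turned into muscle, fat and bone cells in culture, grown in high-glucose DMEM with serum. Wild-type cells gave 2 libraries (numbered 1 and 3 in the labels) and Ranbp2 knockout cells gave 2 (numbered 2 and 3), each from 50000 cells by the Omni-ATAC protocol with 75 bp paired-end reads. Here they are called wild-type 1, wild-type 2, knockout 1 and knockout 2. Ranbp2 codes for the giant nucleoporin that forms filaments on the outer face of the nuclear pore. The knockout cells were 1 clone, expanded from a single GFP-positive cell sorted after transfection with the Cas9 and guide plasmid pX458, and the labels do not describe a matched clone for the wild-type cells. The labels also do not say whether replicates came from separate cultures, so a p-value here reflects the spread among these 4 libraries alone, and that spread may be technical.

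Ribosomes are built in the nucleolus from ribosomal RNA and a fixed set of proteins, each of which is needed in about the same number of copies, and the finished subunits leave the nucleus through the nuclear pore. The genes for these proteins are scattered over nearly all chromosomes, are active in every growing cell, and are known for short promoters that begin transcription within a tract of pyrimidines. That tract, the 5′ terminal oligopyrimidine or TOP motif, puts the messages under the control of mTOR and Larp1. Introns of many of these genes also carry small nucleolar RNAs (snoRNAs), which guide the modification of ribosomal RNA.

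The lists of peaks differed in length, with 33721 peaks in wild-type 1, 18511 in wild-type 2, 13877 in knockout 1 and 24292 in knockout 2, and sequencing depth was unknown because the files hold no read counts. A gene-end peak is one with its summit within 1 kb of either end of a gene in the RefSeq table of GRCm38.p6, which has the coordinates of mm10. Below, 3 measures are given: the fold enrichment of the peak over local background, as deposited by the authors, the list percentile, which is the peak's rank by −log10 q within its own list (100 is the top), and the gene percentile, which is the rank among the same 5789 genes that had a gene-end peak in every library. Fold and list percentile describe a peak within its library and move with list length, so ranks were compared between genotypes by the gene percentile, and folds of the genotypes are set side by side as values only. The fibroblast label was checked on 12 marker genes, of which 10, 7, 4 and 5 had a gene-end peak in wild-type 1, wild-type 2, knockout 1 and knockout 2. Pdgfra and Prrx1 had none in any library. None of the 6 epithelial, 4 endothelial and 3 pluripotency markers had a peak, and 1 of 5 immune and 1 of 5 neural markers had one, in wild-type 1 only. Cells were measured in bulk, so fewer cells with a promoter open and less opening per cell cannot be told apart.

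A gene-end peak was present for 77 members in wild-type 1, 71 in wild-type 2, 60 in knockout 1 and 72 in knockout 2. The same shares over all protein-coding genes were 42.5%, 34.6%, 27.6% and 36.3%. The count averaged 74 ± 4.24 for wild-type (SD, n = 2) and 66 ± 8.49 for knockout cells (SD, n = 2), and knockout 2, with 72, lay between the wild-type values, so the genotypes overlapped. The 77 core genes were open more often than the paralogs: 56 core genes (72.7%) had a peak in all 4 libraries, against 3 of 10 paralogs. Within the core, 24 of 31 small subunit genes, 30 of 43 large subunit genes and 2 of 3 stalk genes were open in all 4. As other housekeeping lists, 39 of 78 mitochondrial ribosomal protein genes (50.0%) and 24 of 40 proteasome subunit genes were open in all 4 libraries. These shares are descriptions and were not tested against each other.

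**Figure D1:**
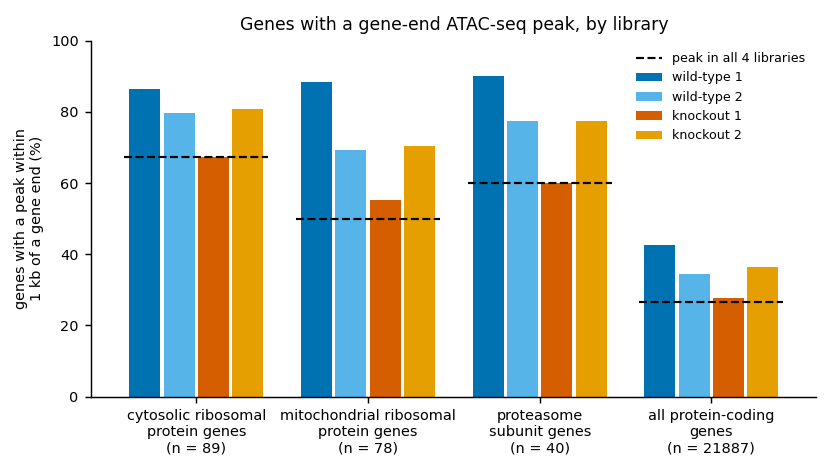
Share of genes with an ATAC-seq peak summit within 1 kb of a gene end (y axis, percent) in each of the 4 libraries (bars, 1 library each) for 4 gene lists, with the number of genes under each list. The dashed line marks the share open in all 4 libraries, which was 67.4% for the 89 cytosolic ribosomal protein genes and 26.4% for all protein-coding genes.

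The members that were not open in every library fell into few patterns. Besides the 60 genes open in all 4 and 12 open in none, 10 were open in every library but knockout 1, the shortest list: Rpl4, Rpl5, Rpl7, Rpl12, Rpl7l1, Rps3, Rps15a, Rps23, Rps25 and Rplp2. Over all genes with any gene-end peak this pattern took up 14.0%, so 10 of 77 members was close to the background. A peak in wild-type 1 alone, the longest list, was found for Rpl6, Rpl8, Rpl32 and Rpl37a, where the background was 11.3%. Rpl39 and Rps4x, both on the X chromosome, had peaks in wild-type 1 and knockout 2, the 2 longest lists. What part list length has in these patterns was not tested beyond the equal-length lists given next.

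A peak in each wild-type library and in no knockout library was found for 1 member. This pattern made up 3.89% of all genes with a gene-end peak, and the reverse pattern 0.116%, with no member. When each list was reduced to its top 13877 peaks, no member was open in one genotype alone.

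No gene-end peak in any library was found for 12 members, and for 56.6% of all protein-coding genes. Of these 12, 5 are core genes, and among the 5 Rpl22 and Rps2 had a peak at an annotated start in every library. Rpl22, a large subunit protein whose annotated start lies inside its span, had a start peak with folds of 23.4 and 14.3 in the wild-type and 12.7 and 14.2 in the knockout libraries. Rps2, of the small subunit, had folds of 17.96, 13.5, 11.0 and 12.8 in the same order. Rpl17 had a peak within 2 kb of a gene end, to either side of it, in every library but knockout 1. Rpl19 and Rpl35a, both of the large subunit, had no peak within 1 kb of a gene end or of an annotated start in any library. Rps27l, a paralog of Rps27 and a target of p53, was a further case of an inner start, with folds of 18.3, 17.1, 8.63 and 12.5.

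The remaining genes without a peak were copies and derivatives of core genes. Rpl10l and Rpl39l are autosomal paralogs used in male germ cells in place of X-linked genes, and neither had a peak in any library. The retrotransposed copies Rps27rt and Rpl37rt, the copy Rpl32l and the retroposed gene Rps23rg1 had none either. Pseudogenes named after the members were closed as well: of 324 such pseudogenes, 9 (2.78%) had a gene-end peak in any library and 2 (0.617%) in all 4. Reads from near-identical copies may be lost or placed at the parent gene during alignment, and no source used here says how such reads were handled, so a closed call for a recent copy is uncertain.

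RefSeq's promoter table (GRCm38.p6) gave a start and strand for 69 of the 89 members. The unmatched members included Rpl3, Rpl7, Rpl8, Rpl17, Rpl21, Rpl23a, Rpl29, Rpl30, Rpl32, Rpl36, Rps14, Rps20, Rps27a, Rps29 and Rplp1. Of the 69, 60 had a peak summit within 1 kb of a start in at least 1 library and 47 in all 4 (68.1%), against 28.8% of the 17492 genes of that table. Per library the members with a start peak numbered 60, 55, 47 and 58 in wild-type 1, wild-type 2, knockout 1 and knockout 2, and the shares over all genes of the table were 45.2%, 37.2%, 29.8% and 38.8%. The summits sat just ahead of the start. Their median position was -50 bp in wild-type 1, -51 bp in wild-type 2, -67 bp in knockout 1 and -52.5 bp in knockout 2, where negative is upstream. Summits were upstream of the start for 50 of 60, 48 of 55, 39 of 47 and 52 of 58 members in these libraries. They were within 150 bp of it for 52, 50, 41 and 53 members. Where a gene had several starts, the one nearest the summit was used. Summit positions of other genes were not summarised, so these positions are not shown to be particular to the members.

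**Figure D2:**
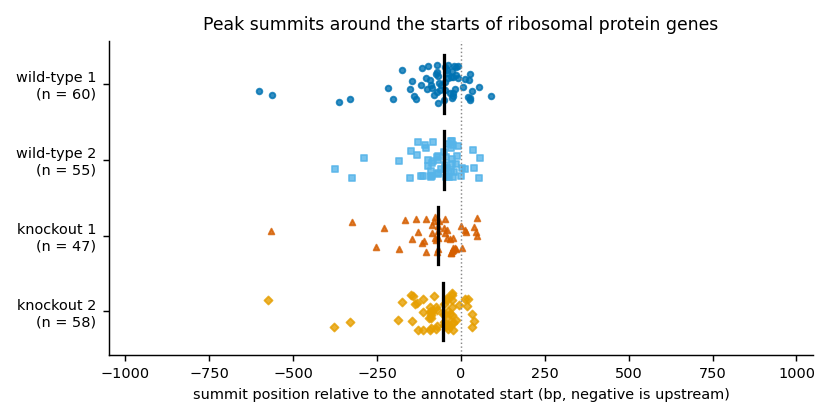
Position of the strongest peak summit within 1 kb of the annotated start (x axis, bp, negative is upstream) for each member with a RefSeq start, by library (rows). Each point is 1 gene, the vertical bars are medians (-50, -51, -67 and -52.5 bp), and the dotted line is the start; vertical scatter within a row has no meaning.

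Some summit positions repeated closely between libraries. At Rps6 they were at -25, -24, -25 and -25 bp, at Rps24 at -41, -41, -41 and -40 bp, and at Rps15 at -30, -30, -33 and -32 bp. Rps26 had its summit further out, at -330, -325, -325 and -330 bp. For 10 members the strongest gene-end summit lay nearer the end of another gene: Rpl4, Rpl12, Rpl15, Rpl36, Rpl37, Rpl3l, Rps18, Rps27, Rps28 and Rplp2. In these places a peak cannot be assigned to 1 gene. Rps28 and Ndufa7, a gene of mitochondrial complex I, are an example, with the summit 15 bp from the end of the one and 5 bp from that of the other.

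The promoter bases below run from 100 bases before to 20 bases after the annotated start. They are given 5′ to 3′ on the gene's own strand, in GRCm38.p6 from RefSeq. At Rps26 the summits lay at -325 to -330 bp in peaks 145 to 185 bp wide, so its printed bases are not those under its peak. Capitals mark matches, on either strand, to CCGGAAG (bound by ETS factors such as Gabpa), AAGATGGC (Yy1), GGGCGG (Sp and Klf factors), TATAAA (the TATA box), CCAAT (NF-Y), CACGTG (the E-box of Myc and Max) and TCTCGCGA. They also mark a TOP run, a stretch of at least 5 pyrimidines on the sense strand that begins with C within 5 bases of the start. Neighbouring or overlapping matches run together. A match is a description of the letters and not a shown binding site. The 3 members with the highest peak ranks among those with a start, Rpl27 and Rps21 on the plus strand at chr11:101442145-101442264 and chr2:180257279-180257398, and Rps26 on the minus strand at chr10:128626487-128626606, are shown to compare with the weakest:
Rpl27: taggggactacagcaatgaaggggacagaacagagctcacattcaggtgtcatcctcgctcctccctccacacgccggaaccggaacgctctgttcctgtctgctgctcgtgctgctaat
Rps26: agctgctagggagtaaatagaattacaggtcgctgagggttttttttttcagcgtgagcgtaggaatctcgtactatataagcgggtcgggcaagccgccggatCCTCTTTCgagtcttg
Rps21: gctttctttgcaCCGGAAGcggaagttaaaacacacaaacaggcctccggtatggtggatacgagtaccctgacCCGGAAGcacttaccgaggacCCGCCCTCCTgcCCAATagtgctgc
The 3 with the lowest ranks among members open in all 4 libraries at the start were Rpl24 and Rpl38 on the plus strand at chr16:55966175-55966294 and chr11:114668480-114668599, and Rpl35 on the minus strand at chr2:39005112-39005231:
Rpl24: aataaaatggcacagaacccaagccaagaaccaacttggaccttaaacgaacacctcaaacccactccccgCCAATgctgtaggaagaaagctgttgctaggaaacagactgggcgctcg
Rpl35: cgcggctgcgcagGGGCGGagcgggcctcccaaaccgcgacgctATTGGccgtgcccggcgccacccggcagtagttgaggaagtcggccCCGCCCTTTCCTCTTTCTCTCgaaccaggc
Rpl38: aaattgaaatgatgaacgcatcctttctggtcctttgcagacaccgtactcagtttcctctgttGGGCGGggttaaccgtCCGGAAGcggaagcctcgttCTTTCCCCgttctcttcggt
In the windows printed here, the 3 highest and 3 lowest members did not divide by these letters. Rpl27, first in rank, held none of them in this window, though it held GGGCGG in the full promoter counted below. Rpl35 and Rpl38, near the bottom, each held a TOP run and at least 1 GGGCGG match in this window. Whether these letters go with peak rank over all members was not tested.

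A core gene and its paralog are set side by side. Rpl22 (chr4:152325626-152325745, plus strand) had no match in this window, and Rpl22l1 (chr3:28805408-28805527, plus strand), a paralog that can replace Rpl22 in the ribosome, held TATAAA and a TOP run. Rpl22l1 is shown because its rank difference between genotypes was the greatest among the called members:
Rpl22: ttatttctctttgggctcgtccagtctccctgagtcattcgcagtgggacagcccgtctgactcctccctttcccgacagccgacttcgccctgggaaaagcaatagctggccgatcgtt
Rpl22l1: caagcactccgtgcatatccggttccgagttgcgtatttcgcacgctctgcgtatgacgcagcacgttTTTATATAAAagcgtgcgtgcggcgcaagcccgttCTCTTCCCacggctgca
After the motif counts were seen, Rps19 (chr7:24884492-24884611, plus strand) and Rps6 (chr4:86857348-86857467, minus strand) were added as the 2 highest-ranked members with TCTCGCGA in this window. Rpl41 (chr10:128549149-128549268, minus strand) was added for the differential region over it:
Rps19: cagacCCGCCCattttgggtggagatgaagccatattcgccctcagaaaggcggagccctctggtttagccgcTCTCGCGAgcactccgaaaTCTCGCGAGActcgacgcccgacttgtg
Rps6: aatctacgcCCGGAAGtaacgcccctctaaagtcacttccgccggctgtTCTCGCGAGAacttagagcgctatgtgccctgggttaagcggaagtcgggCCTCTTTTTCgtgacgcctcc
Rpl41: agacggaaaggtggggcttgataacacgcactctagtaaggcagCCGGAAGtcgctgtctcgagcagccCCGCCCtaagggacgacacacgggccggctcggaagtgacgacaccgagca

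Over the full promoters of the table, 250 bases before to 50 after the start, 32 of the 69 members (46.4%) held a TOP run, against 20.0% of all 17492 genes and 21.0% of the 5032 genes open at the start in all 4 libraries. The letters TCTCGCGA were found in 11 members (15.9%), Rpl7a, Rpl10a, Rpl12, Rpl26, Rpl27a, Rpl35, Rps3a1, Rps6, Rps15a, Rps19 and Rps28, against 1.59% of all genes and 4.05% of the open ones. CCGGAAG was found in 26 members (37.7%), against 12.9% and 25.5%. GGGCGG was found in 41 (59.4%), between 49.2% of all genes and 74.5% of the open ones. CCAAT was less common in members (31.9%) than in either set (42.3% and 51.1%). TATAAA was found in 8 members (11.6%), between 7.07% of the open genes and 14.8% of all genes. AAGATGGC was found in 6 (8.70%), against 3.57% of all genes and 6.68% of the open ones. CACGTG was found in 6 (8.70%), against 8.91% and 12.9%. TOP runs were about as common in open as in other members, with 22 of the 47 members open at the start in all 4 libraries (46.8%) and 10 of the other 22 (45.5%). Other letters differed more between open and other members: GGGCGG had 66.0% and 45.5%, and CCGGAAG 42.6% and 27.3%. CCAAT had 36.2% and 22.7%, and TCTCGCGA 19.1% and 9.09%. TATAAA (12.8% and 9.09%) and CACGTG (10.6% and 4.55%) leaned the same way, and AAGATGGC (6.38% and 13.6%) the other way. These differences were not tested.

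The deposited fold of gene-end peaks of members had medians of 13.6, 12.7, 9.16 and 11.0 in wild-type 1, wild-type 2, knockout 1 and knockout 2, where all genes with a gene-end peak had 12.9, 11.8, 8.86 and 10.1. The median list percentiles of members were 85.2, 73.8, 68.8 and 79.7, against 78.4, 70.0, 66.3 and 74.5. Members ranged widely within each library, from a fold of 5.51 to 26.8 in wild-type 1 and from 3.99 to 16.8 in knockout 1. Peaks in the top 10 percent of their list numbered 25 of 77, 15 of 71, 8 of 60 and 17 of 72. The same count over all genes with a gene-end peak was not made, so these numbers have no background. Where open, the ribosomal protein genes covered most of the range of peak ranks.

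The highest mean list percentile was that of Rpl27, of the large subunit, with folds of 26.8, 24.7, 16.8 and 21.2 in wild-type 1, wild-type 2, knockout 1 and knockout 2. Its peak was number 203 of 33721, 244 of 18511, 419 of 13877 and 290 of 24292 in the lists, and its mean list percentile was 98.5. Rps29, a zinc-binding protein of the small subunit head, had folds of 23.0, 21.1, 14.7 and 19.2 (mean percentile 97.8). Both stood near the top of every list.

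Rps26, which lies at the messenger RNA exit of the small subunit, had folds of 26.8, 24.9, 14.4 and 19.9 (mean percentile 96.8). Rps21 had 19.9, 19.9, 13.4 and 14.1, with list percentiles of 98.4, 97.6, 95.1 and 95.5. The lowest list percentile of these 4 genes in any library was 92.9, for Rps26 in knockout 1. Rpl3l stood next to them by percentile (98.3, 97.4, 92.2 and 98.4), but its peak does not mark its own promoter. Rpl3l is the paralog of Rpl3 used in striated muscle, no library had a peak at its annotated start, and the summit lay 364 bp from its far end and 86 bp from the end of Msrb1, a methionine sulfoxide reductase.

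Other members open in all 4 libraries had peaks in the middle or lower part of the lists. Rpl29 was uneven, with list percentiles of 83.9 in wild-type 1 but 27.6, 22.3 and 45.9 in wild-type 2, knockout 1 and knockout 2. Rps27a, made as a fusion with ubiquitin, had 66.6, 51.4, 24.4 and 42.8. Rpl24 had 76.6, 43.1, 34.3 and 56.5, and Rpl35 had 76.6, 45.0, 43.2 and 47.6. In each of these 4 genes wild-type 1, the longest list, gave the highest percentile.

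**Figure D3:**
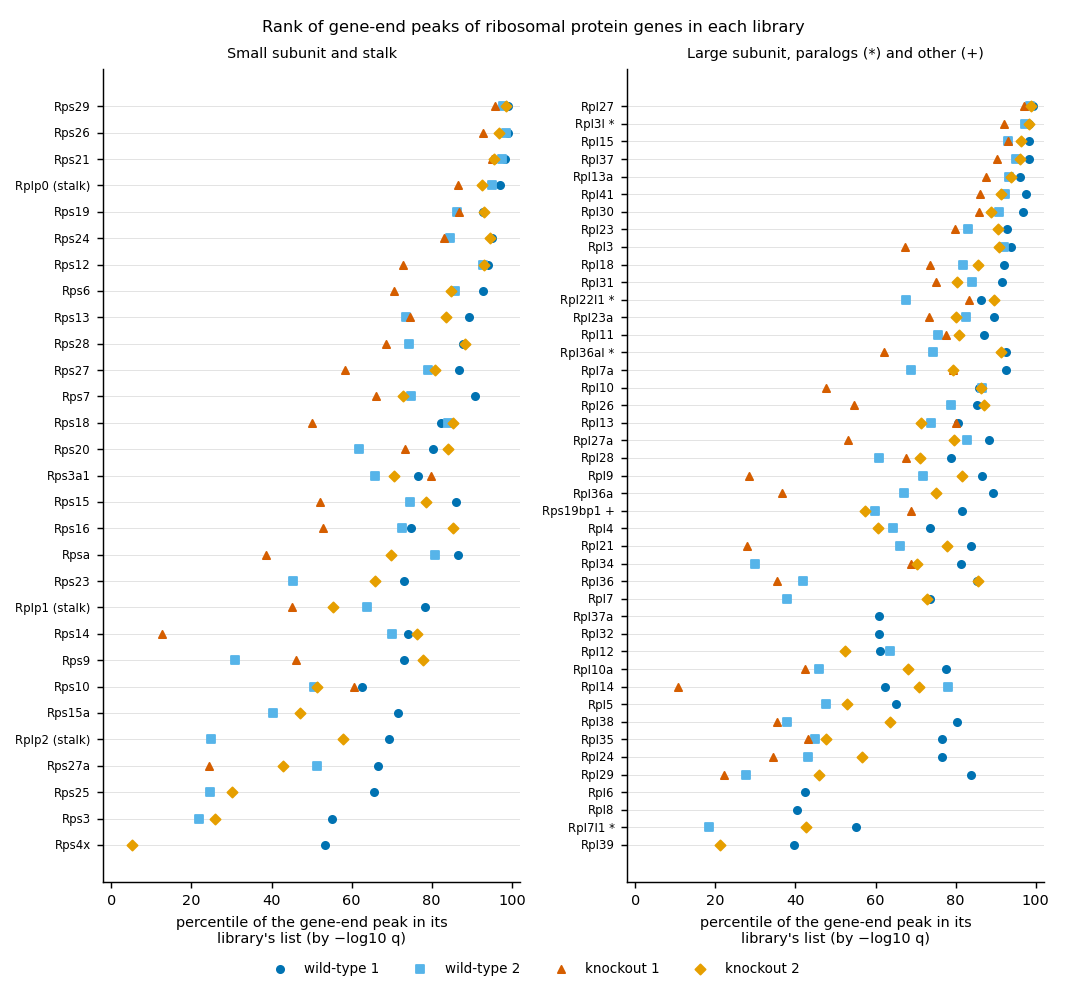
List percentile by −log10 q (x axis, 100 is the top of that library's list) of the strongest gene-end peak of 72 of the 77 members with a peak, for small subunit and stalk genes (left) and large subunit genes, paralogs (*) and other genes (+) (right). Each row is a gene and each point a library, sorted by mean percentile; Rps29 and Rpl27 head the panels, and rows with fewer than 4 points lack a peak in a library.

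The stalk, which recruits translation factors to the ribosome, had 1 strong and 2 weaker promoters. Rplp0, its base, had folds of 23.4, 21.7, 12.6 and 16.6 in wild-type 1, wild-type 2, knockout 1 and knockout 2. Rplp1 had 13.6, 11.2, 7.63 and 7.94. Rplp2 had 10.7 and 6.67 in wild-type and 7.74 in knockout 2, with no peak in knockout 1, and its summit lay 363 bp from its own end and 277 bp from that of Pidd1. In every library Rplp0 had the highest fold of the 3.

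Rpl5 and Rpl11 bind Mdm2 together with 5S ribosomal RNA when ribosome assembly fails, which stabilises p53. Rpl11 had folds of 16.1, 13.1, 10.7 and 11.3, and Rpl5 had 11.6, 9.68 and 8.45 with no peak in knockout 1. Besides Rpl3l, the paralogs with a gene-end peak were Rpl22l1, with 19.9, 13.2, 13.4 and 18.5, Rpl36al, the autosomal copy of X-linked Rpl36a, with 21.3, 13.5, 8.92 and 16.2, and Rpl7l1, with 8.24, 6.63, none and 5.88. Rpl36al shares its summit region with Mgat2, a glycosyltransferase whose end lay 51 bp away. Rps19bp1, which encodes a binding partner of Rps19, had folds of 12.1, 9.40, 8.30 and 6.85.

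Inside the members lie 59 annotated snoRNAs, in 30 host genes, for example 5 in Rpl4 and 4 each in Rpl7a and Rpl13a. Hosts and other members were open alike: 20 of 30 hosts (66.7%) and 40 of 59 non-hosts (67.8%) had a peak in all 4 libraries. The median of the mean list percentile was 75.4 in hosts and 67.1 in the others.

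The comparison of wild-type and knockout cells asked whether openness at these promoters changes when Ranbp2 is lost. With 2 libraries against 2, the two-sided exact permutation test cannot give a p below 0.333, so no single gene can pass a threshold of 0.05. A gene was counted as lower or higher where its knockout gene percentiles were both below, or both above, those of the wild-type libraries, and each such gene has the exact permutation p of 0.333. Of the 60 members ranked, 16 (26.7%) were lower in knockout, where 21.0% of all 5789 ranked genes were, and 7 (11.7%) were higher, where 20.6% were. The share in either direction, 38.3%, was near the 41.6% of all genes. Ranked by fold in place of −log10 q, 11 members (18.3%) were lower, where 19.1% of all genes were, and 5 (8.33%) were higher, where 19.7% were, so under that ranking the lower share was not above the background. The lower genes were 9 of the large subunit, 6 of the small subunit and Rplp0, and the higher ones were 4 of the small subunit, 2 of the large subunit and the paralog Rpl22l1.

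As a group the members gave no single direction. The median difference of knockout minus wild-type gene percentile was -2.07 points and the mean was -0.62, against a median of 0.00 over all genes. The median gene percentile of members, by contrast, was 47.2 and 47.8 in the wild-type and 51.3 and 51.5 in the knockout libraries, so this measure had the opposite sign. Between replicates the median difference over all members was 0.06 points (wild-type 1 minus wild-type 2) and -0.49 (knockout 1 minus knockout 2). Pooled, both were smaller than the difference between genotypes, but this did not hold within each subunit. Large subunit genes had replicate differences of 4.89 (wild-type) and 0.68 (knockout), against -3.22 between genotypes. Small subunit genes had -1.98 (wild-type) and -2.91 (knockout), against -2.62 between genotypes. Single genes varied more. For these the median absolute gap between the 2 knockout libraries was 11.7 points in members and 8.62 in all genes, and between the 2 wild-type libraries 7.87 and 6.90.

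Rpsa had the greatest shift downward. It encodes a small subunit protein that is also known as a laminin receptor, and its gene percentiles were 44.4 and 54.9 in wild-type and 20.5 and 24.8 in knockout libraries, a difference of -27.1 points. Its folds were 14.6 and 13.9 against 6.67 and 8.72. The gap between the genotypes was wider than the gap of 10.5 points between the wild-type replicates.

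Rpl27a, of the large subunit, had gene percentiles of 49.7 and 59.2 in wild-type against 33.5 and 42.2 in knockout libraries (-16.6 points). Rpl3, which reaches towards the peptidyl transferase centre, had 71.0 and 80.2 against 49.2 and 70.7 (-15.6), and its knockout replicates lay further apart than the genotypes. Rps6, the ribosomal protein phosphorylated by S6 kinase downstream of mTOR, had 66.5 and 65.9 against 53.6 and 53.9 (-12.4). Rps6 was the tightest of these, with replicates under 1 point apart in each genotype. Rplp0 also ranked lower, with 85.9 and 88.5 against 77.4 and 75.7 (-10.6), while Rplp1 overlapped, with 23.2 and 28.6 against 26.4 and 10.3.

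The greatest shift upward was that of Rpl22l1, with gene percentiles of 43.4 and 32.8 in wild-type and 72.2 and 66.4 in knockout libraries, a difference of 31.2 points. Its replicates lay 10.6 and 5.8 points apart. Rps20, of the small subunit head, had 27.8 and 26.4 against 56.5 and 52.0 (27.2 points). The wild-type replicates of Rps20 lay 1.4 points apart and the knockout ones 4.5.

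Rps9, which acts in decoding accuracy, had 14.0 and 5.46 in wild-type against 27.2 and 39.0 in knockout libraries (23.4 points). Rpl28 had 24.4 and 25.3 against 49.7 and 26.9 (13.5), so 1 knockout library carried most of it. Rps19, mutated in Diamond-Blackfan anaemia, had 66.4 and 66.7 against 78.1 and 77.4 (11.2), with replicates under 1 point apart in each genotype. Rpl11 overlapped between genotypes, with 46.1 and 45.7 against 62.1 and 45.0. Deposited folds do not show these upward shifts directly, since knockout folds were lower over all genes: Rps19 had 15.7 and 13.8 in wild-type and 11.2 and 13.3 in knockout libraries.

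**Figure D4:**
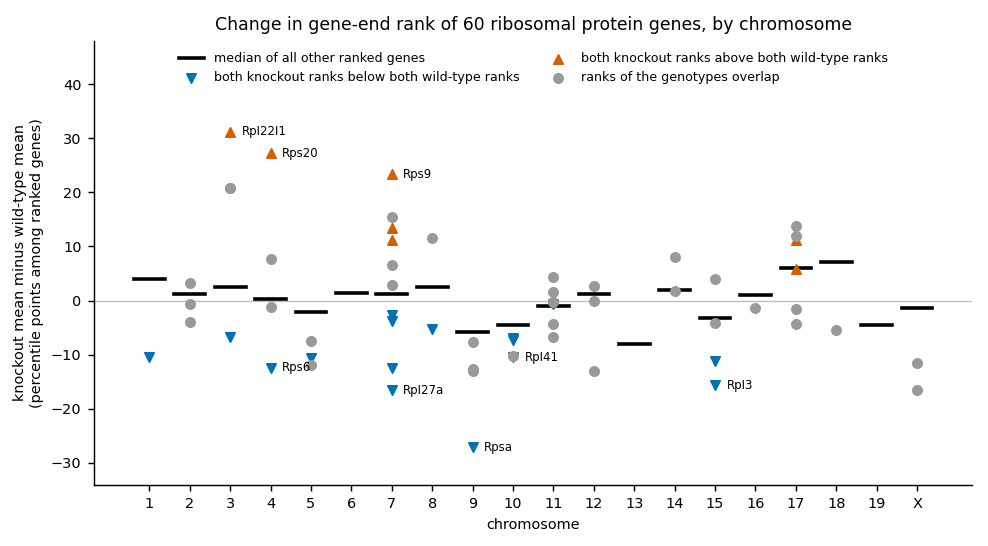
Knockout mean minus wild-type mean of the gene percentile (y axis, percentile points) for the 60 ranked members by chromosome (x axis), with triangles where the genotypes do not overlap and grey circles where they do. Black bars are the median of all other ranked genes on the chromosome; Rpl22l1 (31.2) is highest and Rpsa (-27.1) lowest.

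The median of the other genes on the same chromosome had the sign of the called member in 15 of 23 cases. The same share over all called genes was not counted, so this number has no background and is a description only. On chromosome 9, 4 members had differences from -27.1 (Rpsa) to -7.60 (Rplp1), and the other genes of that chromosome had a median of -5.73. On chromosome 17, the 6 ranked members had a median of 8.50 and the other genes 6.07. On chromosome 10, which carries Ranbp2, all 4 ranked members were on the negative side, and the other genes had a median of -4.56. The 4 were Rpl41 (-10.5), Rps12 (-10.2, overlapping), Rps26 (-7.36) and Rps15 (-7.01, but 1.68 when ranked by fold), and the fifth member there, the copy Rpl32l, had no peak. With the median of its chromosome subtracted, 18 members were called, 13 lower (21.7%, against 19.7% of all genes) and 5 higher (8.33%, against 20.4%). What a change along whole chromosomes has to do with the members' ranks was not tested further.

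Rpl41, the smallest ribosomal protein and part of the bridge between the subunits, was the one member at a differential region of the authors' deposited lists. Both regions there came from the list of 190 wild-type-enriched regions, whose background was 0.512% of all genes, and none from the 189 knockout-enriched ones, with 0.105%. The authors' deposited table gives positions only. The region chr10:128549036-128549435 covers the printed promoter, and its peak had folds of 14.1 and 12.7 in wild-type and 9.75 and 10.9 in knockout libraries. The region chr10:128547653-128548052 lies past the other end of the gene, 156 bp from the end of Zc3h10, with folds of 12.4 and 11.4 against 6.61 and 9.69.

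By gene percentile Rpl41 had 88.9 and 81.2 in wild-type and 76.6 and 72.4 in knockout libraries. Ranked by fold in place of −log10 q, its difference was 10.5 points upward, so its direction depends on the measure of rank. Its folds were lower in both knockout libraries, but so were those of most peaks, since the knockout lists had lower medians over all genes (8.86 and 10.1, against 12.9 and 11.8).

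The rest of the ribosome and its makers were read in the same way, from lists of known genes. Among ribosomal proteins outside the naming rule, Fau, whose product is a ubiquitin-like fusion with Rps30, was lower in knockout (-20.4 points, folds of 15.7 and 16.6 against 8.6 and 10.5), and Rack1 had no peak in knockout 1. Of 25 ribosome assembly genes 22 were open in all 4 libraries (88.0%). Of these 22, 6 were lower (27.3%) and 7 higher (31.8%), where 21.0% and 20.6% of all 5789 ranked genes were. The lower ones included Fbl, the methyltransferase guided by snoRNAs (-25.0), and the higher ones Bysl (25.9), Rrs1 (19.4) and Npm1, a nucleolar chaperone (19.1).

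Of 14 translation factors with TOP messages all were open in all 4 libraries, 5 being lower (Eef1a1, Eef1d, Eef1g, Eef2 and Eif4b) and 3 higher (Npm1, Eif3l and Tpt1). The greatest shifts of these were those of Npm1 (19.1) and the elongation factors Eef1d (-19.0) and Eef2 (-16.1). Of 11 RNA polymerase I genes 8 were open in all 4, with Polr1e (20.9) and Taf1b (11.9) higher and none lower. Of 12 genes that control TOP messages, 7 were open in all 4 and none of these was called. Larp1 and Larp4 had no gene-end peak. None of 4 genes of the p53 response to ribosomal stress had a gene-end peak in all 4 libraries, and Mdm2 and Trp53 had one in all but knockout 1. At annotated starts, however, 2 of the 4 had a peak in every library. Of 7 regulators bound at ribosomal protein promoters 5 were open in all 4, and Yy1 (17.1), Tbp (11.7) and Gabpa (5.6) were higher. For comparison, 12 mitochondrial ribosomal protein genes were lower and 3 higher of 39 ranked, and 4 proteasome genes were lower and 6 higher of 24.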

How the data were processed

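Per the submitters' processing notes the build was mm10, and the tools named, without roles, were MACS2, Bowtie2, cutadapt, deepTools, DESeq2 and DiffBind 2.2.12. The authors deposited 1 peak list per library, called in each library separately. Their score is 10 times −log10 q with decimals dropped, apart from 5 to 15 peaks per list, the deposited fold is a ratio over local background, and the authors' −log10 p and −log10 q belong to the summit. The 2 deposited differential lists hold positions only, and no source used here gives their thresholds. Depth is unknown, since no counts are held.

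Peaks were joined to RefSeq genes and promoters of GRCm38.p6 with Python 3.11.15 and pandas 2.3.3, and the steps were checked on simulated data. A gene's strongest gene-end peak by −log10 q was ranked in its list and among 5789 genes open in all libraries. Tests were two-sided exact permutations over the libraries, and ranks were taken with scipy 1.17.1. Members and lists were chosen with earlier results of these data known. Named genes were those at a differential region, in 1 genotype only or without a peak, the 5 highest and lowest ranks, the 5 largest differences each way, paralogs, stalk genes, Rpsa, Rps6, Rps19, Rpl5, Rpl11 and chromosome 10 members. Some genes that meet this rule are not reported here. Other genes were named after their values were seen. Alternatives were other windows, thresholds, list lengths and ranks, starts only, and leaving out each library.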

Additional observations from a re-analysis of the deposited data

How the results depend on the processing

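Counts of members with a peak kept within 1.5 times their value under every alternative run. The 1 member open in one genotype alone became 0 with lists cut to equal length, with −log10 q of at least 10 and with annotated starts only, and ranged from 1 to 11 with a library left out. Members whose ranks did not overlap numbered 16 when ranked by fold, and 34 to 52 with 1 library left out. There 1 library is set against 2, and non-overlap is more frequent over all genes too. Without knockout 1 (52 members) 42.9% were lower and 31.4% higher, against 35.8% and 34.9% of all genes. Without knockout 2 (46) these shares were 50.0% and 26.7%, against 37.8% and 37.3%. Without wild-type 1 (42) they were 41.7% and 28.3%, against 35.3% and 34.3%. Without wild-type 2 (34) they were 40.0% and 16.7%, against 33.5% and 33.2%. The median difference was -0.29 points with annotated starts only, -3.91 without paralogs and other genes, -1.06 when ranked by fold, and -3.13 to -0.94 with a library left out. Ranked by fold, Rpl10a (-1.13), Rpl13a (8.05), Rpl41 (10.5), Rps15 (1.68) and Rps28 (-0.99) changed direction, and so did Rps15 (0.015) with the chromosome median subtracted; the cause was not tested. Of the 23 called members, 11 kept their call under every setting run, among them Rpl22l1, Rpl27a, Rpl31, Rplp0, Rps6, Rps9, Rps19, Rps20 and Rpsa. Some settings could not undo a call: pairing by replicate number and leaving out paralogs and other genes keep it by construction. Leaving out a library could change a call only through the re-ranking of genes. Keeping a call under these settings is therefore no evidence that it is stable. Taking differences within replicate numbers (replicate block) gave 32 non-overlapping members, 22 lower and 10 higher, where 28.7% and 28.1% of all genes were, with a median of -2.07; deviations of same-numbered libraries correlated at 0.062 over 5789 genes, and the samples share only a number. Counting a peak only for the gene with the nearest end, an alternative chosen after seeing the data, left 22 members called. Of these, 16 were lower (30.8% of those ranked) and 6 higher (11.5%), where 21.1% and 20.5% of all genes were. Since depth is unknown, a missing peak may be one below a list's threshold.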
